A study of Mus musculus with 27 samples.

Results

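The unirradiated rectum was compared at the latest and the earliest time of the series: 3 sham mice taken at 8 weeks against 3 sham mice taken at 4 h. The libraries were taken by label, as the sham libraries of those times, which gave 6 of the 27 libraries of the series. The 6 sham libraries of 3 days and 2 weeks served as intermediate points. The comparison and the gene lists were chosen with earlier results of these data known. Polyadenylated RNA of rectal tissue was sequenced from female C57BL/6 mice (C57BL/6J in the study's methods) that were 8 to 10 weeks old at the start. The sham mice were anesthetized without X-ray exposure, and no transgene or agent is named for them, and the rectum was split lengthwise, with 1 side used for RNA. Each time point was a separate set of mice. The 8-week mice were older than the 4-h mice by the length of the experiment. Age, time since anesthesia, date of collection and library preparation cannot be told apart here. Profiles of genes over time in the study were drawn against the 4-h sham group. The difference between sham groups is a property of that baseline. The study's tests at each time used the control group of that time, with the 4-h controls shared for 1 day.

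Cholesterol is built from acetyl-CoA through the mevalonate pathway and the enzymes are transcribed together by SREBP2, a membrane-bound factor that is released to the nucleus when sterols in the endoplasmic reticulum are low. DNA replication in the gut takes place in the transit-amplifying cells of the crypt, where the MCM helicase is loaded on origins and the polymerases, clamp and clamp loader copy the genome. The mitochondrial genome encodes core subunits of the respiratory chain, and its transcripts are among the most abundant in colonocytes, while the other subunits are encoded in the nucleus.

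Total counts were between 19162655 and 21527405 in the 6 libraries, and 14470 genes passed the filter on low counts. At an adjusted p below 0.05 (edgeR quasi-likelihood test, Benjamini-Hochberg) (what "called" means throughout), 187 genes were called higher at 8 weeks (1.29% of the genes tested) and 221 were called lower (1.53%), 408 in all (2.82%). Leaving out 1 library at a time gave 33, 24 and 67 calls without 8-week replicate 1, 2 or 3, and 77, 195 and 487 calls without 4-h replicate 1, 2 or 3. The study defined differentially expressed genes (DEGs) with DESeq2, by an adjusted p below 0.01 and a log2 fold change beyond 1 in size. With these thresholds on the edgeR test, 25 genes passed (0.173%), of which 2 were higher and 23 lower. With DESeq2, 84 passed. In the edgeR test 0 passed when any of the 8-week libraries was left out. DEGs below are those of the edgeR test unless another test is named. Epithelial markers reached a summed 15660 to 18310 CPM (counts scaled by TMM to a common library size) in the 6 libraries, and the squamous markers of the anal canal reached 4.54 to 15.7 CPM. Of 148 cell type markers tested in 18 lists, 2 were called higher (Tff3, a goblet cell peptide, and Lmod1, a smooth muscle protein) and 0 lower, with 20 higher and 6 lower at an unadjusted p below 0.05 and 9 higher and 3 lower by DESeq2. Neither Tff3 nor Lmod1 was called after the GC correction described in the next paragraphs. Over all genes tested, 11.7% were higher and 12.3% lower at an unadjusted p below 0.05, and 3.99% and 4.78% were called by DESeq2, and counts at these thresholds below are to be read against those shares. The summed level of 16 of the 18 lists overlapped between the times. The lists of crypt stem cells (232 to 282 CPM at 4 h and 290 to 322 CPM at 8 weeks) and of enteroendocrine and tuft cells (253 to 288 and 294 to 318 CPM) did not overlap.

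The 8-week libraries stood apart from the other sham libraries in base composition, which bears on every result below. GC content was taken as the share of G and C bases in the longest protein-coding transcript of each gene. In each library the median log2 level, relative to the mean of the 12 sham libraries, of the decile of genes richest in GC was set against that of the poorest decile. This difference was 0.46, 0.34 and 0.28 in the 8-week libraries and between -0.45 and -0.01 in the 9 other sham libraries. Across all 27 libraries on their own scale, the irradiated libraries lay at 0.27 to 0.49 at 8 weeks, at 0.13 to 0.29 at 3 days and at -0.09 to 0.36 at 1 day, beside 0.20 to 0.38 in the 8-week sham libraries and -0.22 to -0.11 in the 4-h sham libraries. Between the 4-h and 8-week sham groups the means were -0.08 ± 0.06 and 0.36 ± 0.09 (SD, n = 3 each), with p = 0.1 in a two-sided exact permutation test, the smallest that 3 against 3 allows.

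Fold changes followed the same axis. The median log2 fold change went from -0.23 in the decile of genes with the least GC to 0.21 in the decile with the most, and Spearman's rho between log2 fold change and GC content was 0.447 across 13453 genes, which are not independent replicates. Genes called higher had a median GC content of 56.7%, genes called lower 43.3% and genes not called 50.4%. Calls of 8 weeks against 4 h are therefore set beside those from a fit in which the dependence on GC content was removed library by library. That fit called 16 genes higher (0.119% of 13453) and 51 lower (0.379%), 67 in all (0.498%), against 237 and 248 in the same genes without the correction. Whether the GC trend came from the tissue or from the libraries was not tested.

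**Figure D1:**
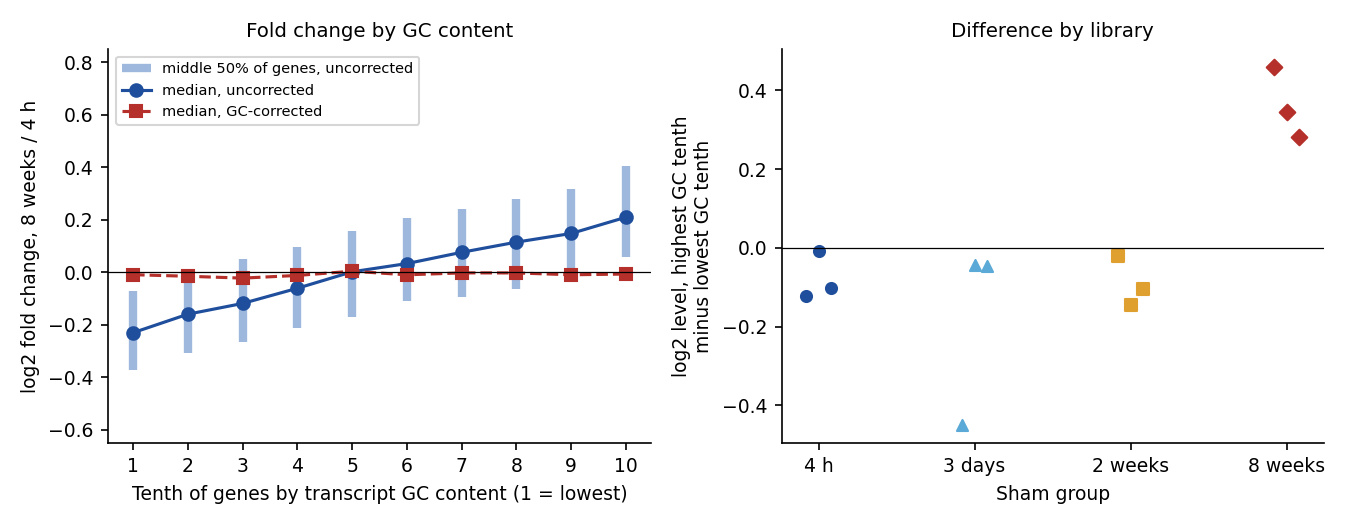
Left, median log2 fold change of sham 8 weeks against sham 4 h (y axis) in deciles of genes ordered by transcript GC content (x axis), with bars for the middle 50% of genes, before (circles) and after (squares) GC correction. Right, log2 level of the GC-richest decile minus that of the GC-poorest decile in each of the 12 sham libraries by group. The uncorrected median went from -0.23 to 0.21 over the deciles, and the 3 libraries of 8 weeks (0.28 to 0.46) lay above the 9 others.

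Cholesterol synthesis enzymes were lower at 8 weeks along most of the pathway. Of 19 enzymes tested, from acetoacetyl-CoA thiolase to the last steps, 14 were called lower at 8 weeks and 0 higher, against 1.53% of all genes called lower. The list was chosen with earlier results of these data known, so its excess over that share is a description and not independent evidence. All 19 log2 fold changes were negative, the median was -1.15 against 0.003 over all genes tested, and 18 enzymes had every 8-week library below every 4-h library, which 15.3% of all genes showed. After GC correction 12 of 18 enzymes were still called lower and the median was -1.16. The median GC content of the enzymes was 49.5%. Of the 23 DEGs that were lower, 11 were enzymes of this list, 4 belonged to sterol control and 1 to fatty acid synthesis.

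The promoters of 16 of the 21 listed enzymes were found in the RefSeq table (mouse build GRCm38.p6), and the 250 bases upstream of the start were searched on both strands. The CCAAT box, bound by NF-Y, a usual partner of SREBP, was found in 15 of 16 promoters, against 37.5% of the 27025 genes in the table. It was found in 9 of 10 promoters of the enzymes called lower, so it did not mark these enzymes off from the rest of the list. Other lists also held it often, with 9 of 12 promoters of sterol control and 11 of 16 of the clock genes. The core of the sterol regulatory element, TCACNCCAC, was found in 1 of 16 (Hmgcs1, at -137 from the start), against 1.22% of all genes. Other forms of the element were not searched. The promoters of some enzymes called lower are shown because these members moved together, with matches to either motif in capitals and the reverse complement ATTGG where the box is on the other strand. They lie at chr13:119690101-119690350 on the plus strand (Hmgcs1), chr8:64733579-64733828 on the minus strand (Msmo1), chr5:4104698-4104947 on the minus strand (Cyp51), chr13:8885356-8885605 on the plus strand (Idi1) and chr10:76531355-76531604 on the plus strand (Lss).
Hmgcs1: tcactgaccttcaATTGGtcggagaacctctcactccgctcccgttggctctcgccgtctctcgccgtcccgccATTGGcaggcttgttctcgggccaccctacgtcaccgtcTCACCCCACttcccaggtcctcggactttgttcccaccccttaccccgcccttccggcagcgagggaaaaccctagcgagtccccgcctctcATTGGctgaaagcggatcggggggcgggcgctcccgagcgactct
Msmo1: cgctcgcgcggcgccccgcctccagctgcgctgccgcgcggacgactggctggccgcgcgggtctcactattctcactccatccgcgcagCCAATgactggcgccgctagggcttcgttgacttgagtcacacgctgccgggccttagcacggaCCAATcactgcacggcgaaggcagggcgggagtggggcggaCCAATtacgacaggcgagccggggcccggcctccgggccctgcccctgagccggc
Cyp51: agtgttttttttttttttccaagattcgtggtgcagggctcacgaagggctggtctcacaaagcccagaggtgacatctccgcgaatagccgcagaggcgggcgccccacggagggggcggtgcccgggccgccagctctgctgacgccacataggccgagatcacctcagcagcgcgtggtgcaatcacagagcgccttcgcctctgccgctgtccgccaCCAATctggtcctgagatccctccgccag
Idi1: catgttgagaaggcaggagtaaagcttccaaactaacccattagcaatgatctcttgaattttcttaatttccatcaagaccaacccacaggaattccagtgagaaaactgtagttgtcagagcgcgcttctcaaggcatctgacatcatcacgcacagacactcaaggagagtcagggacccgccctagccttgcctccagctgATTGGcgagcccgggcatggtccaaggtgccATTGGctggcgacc
Lss: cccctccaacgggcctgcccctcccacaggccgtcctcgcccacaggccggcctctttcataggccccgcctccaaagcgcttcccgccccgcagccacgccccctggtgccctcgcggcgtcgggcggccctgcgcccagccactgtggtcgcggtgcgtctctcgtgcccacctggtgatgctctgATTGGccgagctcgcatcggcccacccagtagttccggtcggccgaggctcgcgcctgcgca

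The Hmgcs1 and Msmo1 windows held 3 CCAAT boxes each, Idi1 held 2, and Cyp51 and Lss held 1 each. A match is a stretch of letters and not a measured binding site.

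The first steps of the pathway were among those called lower. Hmgcs1, the cytosolic HMG-CoA synthase, had 746, 754 and 639 CPM in the 4-h libraries and 294, 227 and 243 CPM in the 8-week libraries. The groups were far apart, with a log2 fold change of -1.49 ± 0.12 (SE; adjusted p = 0.0033). Acat2, which joins acetyl-CoA units, had 96.4, 73.7 and 65.4 CPM at 4 h and 28.8, 26.1 and 24.6 CPM at 8 weeks. The kinases Mvk and Pmvk, which phosphorylate mevalonate, showed the smallest called changes of the pathway, with log2 fold changes of -0.88 and -0.91. For Pmvk the highest 8-week library (19.8 CPM) lay not far below the lowest 4-h library (25.4 CPM). Pmvk was not called after GC correction, and Hmgcs1 had no GC value and was not in that fit.

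The isoprenoid steps behaved alike. Idi1, the isomerase that makes dimethylallyl diphosphate, had 345, 263 and 271 CPM at 4 h and 107, 96.2 and 119 CPM at 8 weeks. Fdps, farnesyl diphosphate synthase, had a mean of 178 CPM at 4 h and 81.0 CPM at 8 weeks. Ggps1, which leads away from sterols to geranylgeranyl diphosphate, was not called, with 30.4 to 37.3 CPM at 4 h and 26.9 to 33.9 CPM at 8 weeks, and was the only tested enzyme of the list whose groups overlapped.

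From squalene onwards the values were as follows. Fdft1, squalene synthase, was even within groups, with 193, 189 and 180 CPM at 4 h and 85.1, 79.2 and 86.3 CPM at 8 weeks (log2 fold change -1.16 ± 0.08, adjusted p = 0.0027). Sqle, the epoxidase, had 241, 237 and 158 CPM at 4 h and 116, 83.7 and 86.6 CPM at 8 weeks (log2 fold change -1.15 ± 0.19, adjusted p = 0.031). Lss, lanosterol synthase, had the largest change of the pathway, with 189, 142 and 123 CPM at 4 h and 48.6, 38.8 and 44.9 CPM at 8 weeks (log2 fold change -1.78 ± 0.16, adjusted p = 0.0034). Every library of the later group was below every library of the earlier group for these enzymes.

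The demethylation steps that follow lanosterol were also called lower. Cyp51, the lanosterol demethylase, had 310, 304 and 230 CPM at 4 h and 94.8, 83.1 and 94.8 CPM at 8 weeks. Msmo1, the methylsterol oxidase, had 261, 273 and 231 CPM at 4 h and 106, 104 and 100.2 CPM at 8 weeks, with a log2 fold change of -1.30 ± 0.09. For Hsd17b7, the sterone reductase, the 8-week libraries were nearly identical (21.3, 21.2 and 21.1 CPM) and lay below 62.2, 69.0 and 49.6 CPM at 4 h. Nsdhl, the sterol dehydrogenase encoded on the X chromosome, had a log2 fold change of -1.15 ± 0.12. The last steps showed smaller differences: Ebp, Sc5d and Dhcr7 had log2 fold changes of -0.18, -0.36 and -0.31 and none was called, although none of the 3 overlapped between groups.

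**Figure D2:**
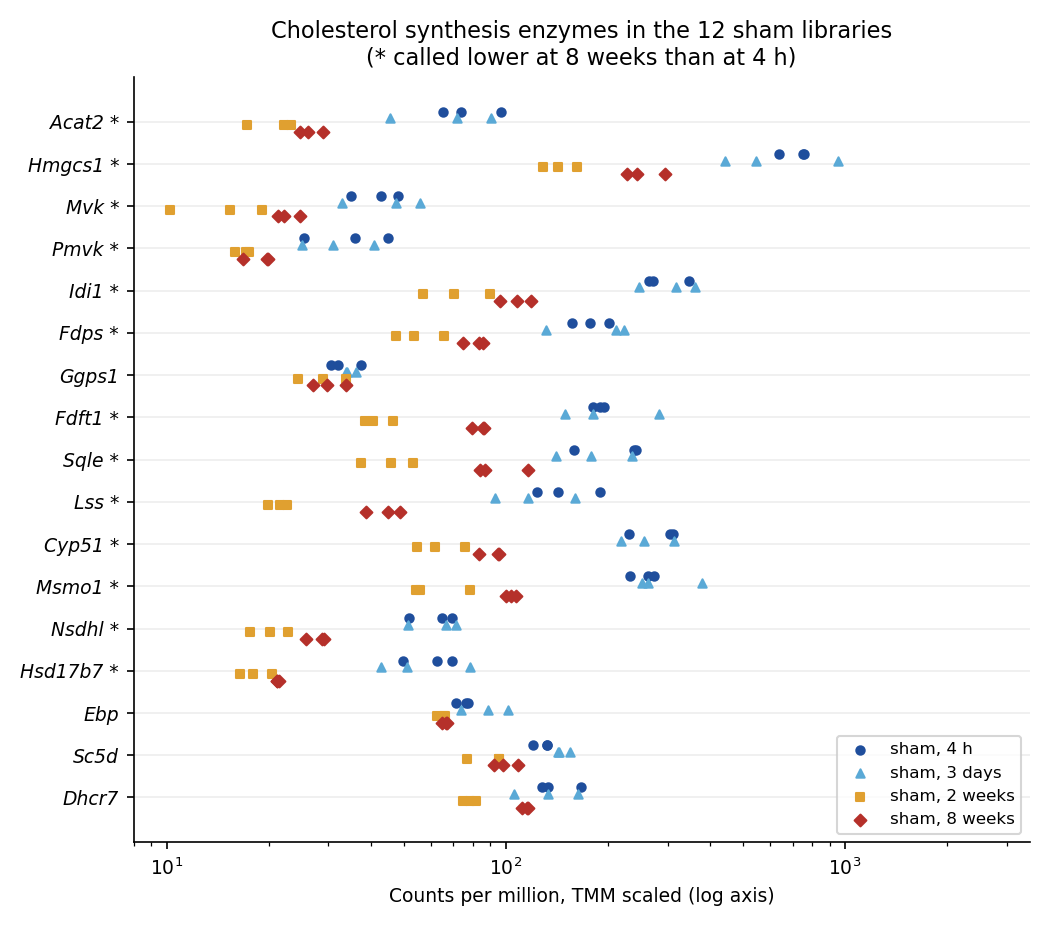
CPM (TMM scaled over the 12 sham libraries, log axis) of 17 cholesterol synthesis enzymes in pathway order from top to bottom, with 1 symbol per sham library. The 13 starred enzymes were called lower at 8 weeks than at 4 h; the 2-week libraries lay lower still for most of them, and the 3-day libraries overlapped those of 4 h for most of them.

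Of 18 tested regulators and transporters of sterols, 7 were called lower and 0 higher, against 1.53% and 1.29% of all genes. Their median log2 fold change was -0.34, and 6 of 18 were called lower after GC correction, against 0.379% of all genes. Insig1, which holds the SREBP escort protein in the endoplasmic reticulum, had 280.2, 284 and 234 CPM at 4 h and 92.5, 112 and 113 CPM at 8 weeks (log2 fold change -1.33 ± 0.12, adjusted p = 0.0034), without overlap. Rdh11, Stard4, Tmem97 and Srebf1 were called lower with log2 fold changes of -1.21, -0.61, -0.53 and -0.72. Of these genes Stard4 was not called after GC correction.

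The sensors and proteases themselves differed less. Srebf2, which encodes SREBP2, had 242 to 302 CPM at 4 h and 221 to 259.7 CPM at 8 weeks, overlapping, and its log2 fold change of -0.22 ± 0.11 was not called (adjusted p = 0.27). Scap, the escort protein, and Mbtps1 and Mbtps2, the proteases that release SREBP, had log2 fold changes of 0.16, 0.21 and -0.34 and were not called. Npc1 and Npc2, which carry cholesterol out of lysosomes, had log2 fold changes of 0.05 and 0.02. Soat1, which esterifies cholesterol for storage, had 65.8, 79.6 and 66.1 CPM at 4 h and 103, 94.5 and 86.5 CPM at 8 weeks, without overlap but not called (adjusted p = 0.068).

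Genes on the opposite side of sterol balance were mostly not called. LXR receptors, activated by oxysterols, drive sterol export. Against 1.29% of all genes called higher and 1.53% lower, 1 of 9 tested genes of that list was called higher and 0 lower. This was Mylip, a ubiquitin ligase, with 29.9, 29.4 and 30.3 CPM at 4 h and 41.9, 55.9 and 49.6 CPM at 8 weeks (log2 fold change 0.72 ± 0.11, adjusted p = 0.028; 0.041 after GC correction). The exporters Abca1, Abcg1, Abcg5 and Abcg8 were not called and overlapped between groups. In fatty acid synthesis, which SREBP1 drives, 3 of 19 genes were called lower and 0 higher, before and after GC correction. The shares of all genes called lower were 1.53% and 0.379%. Of the 19 log2 fold changes 16 were negative (median -0.33), and 8 genes lay lower without overlap, against 15.3% of all genes. At an unadjusted p below 0.05, 10 were lower and 1 higher (7 and 0 by DESeq2). Scd2, a stearoyl-CoA desaturase, had 2753, 2536 and 1976 CPM at 4 h and 1101, 932 and 814 CPM at 8 weeks (log2 fold change -1.35 ± 0.16, adjusted p = 0.0089). Aacs, which makes acetoacetyl-CoA for lipid synthesis, and Fads1, a desaturase, had log2 fold changes of -0.96 and -0.76, whereas Acly, Acaca, Fasn and Scd1 had values of -0.28, -0.56, -0.51 and -0.86 and were not called.

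**Figure D3:**
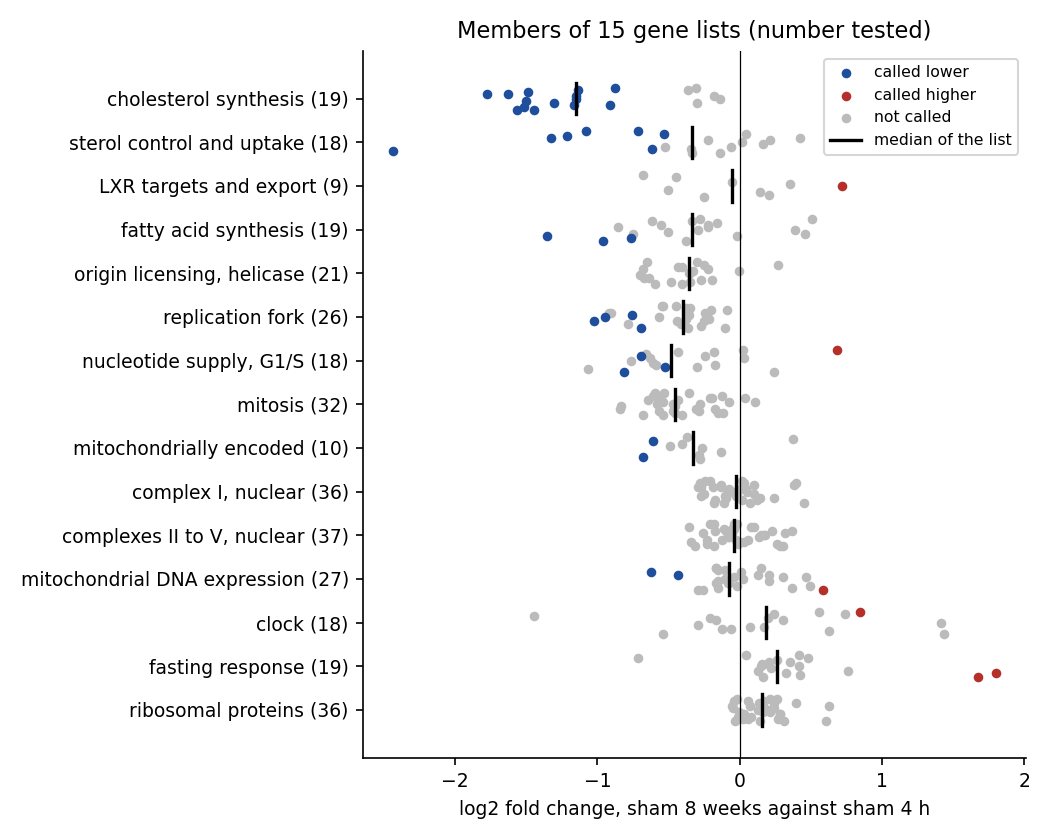
log2 fold change of sham 8 weeks against sham 4 h (x axis) for every tested member of 15 gene lists (y axis, number tested in brackets), coloured by call, with a bar at the median of each list. Cholesterol synthesis had a median of -1.15, replication and mitosis lists had medians from -0.35 to -0.48, and the nuclear respiratory chain lay near 0.

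The intermediate sham groups showed that the difference was not a steady decline. The summed level of the tested cholesterol synthesis enzymes was 4038, 3879 and 3260 CPM at 4 h, 2901, 4599 and 3255 CPM at 3 days, 1049, 1217 and 1007 CPM at 2 weeks and 1821, 1635 and 1742 CPM at 8 weeks. The 8-week libraries thus lay below all 6 libraries of the first 3 days and above all 3 libraries of 2 weeks. In the fit of the 12 sham libraries, which called 335 genes higher (2.25% of 14895) and 226 lower (1.52%) at 8 weeks against 2 weeks (3.77% in all), 5 of the 19 enzymes were called higher at 8 weeks and 0 lower, with a median log2 fold change of 0.55. After GC correction that fit called 169 genes higher (1.23% of 13726) and 52 lower (0.379%), and 5 of 18 enzymes higher and 0 lower. Both comparisons share the 8-week libraries. Among them were Fdft1 (log2 fold change 1.00, adjusted p = 0.014), Sqle (1.07), Lss (1.05) and Msmo1 (0.72). The 3-day group was the least even, and its second library held the highest level of Hmgcs1 (950.0 CPM) within that group. In all 27 libraries on a common scale, the irradiated groups had sums between 1559 and 3404 CPM, so that the 8-week sham libraries (1650 to 1841 CPM) lay within the range of the irradiated rectum and the 4-h sham libraries (3301 to 4095 CPM) at its top or above it.

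**Figure D4:**
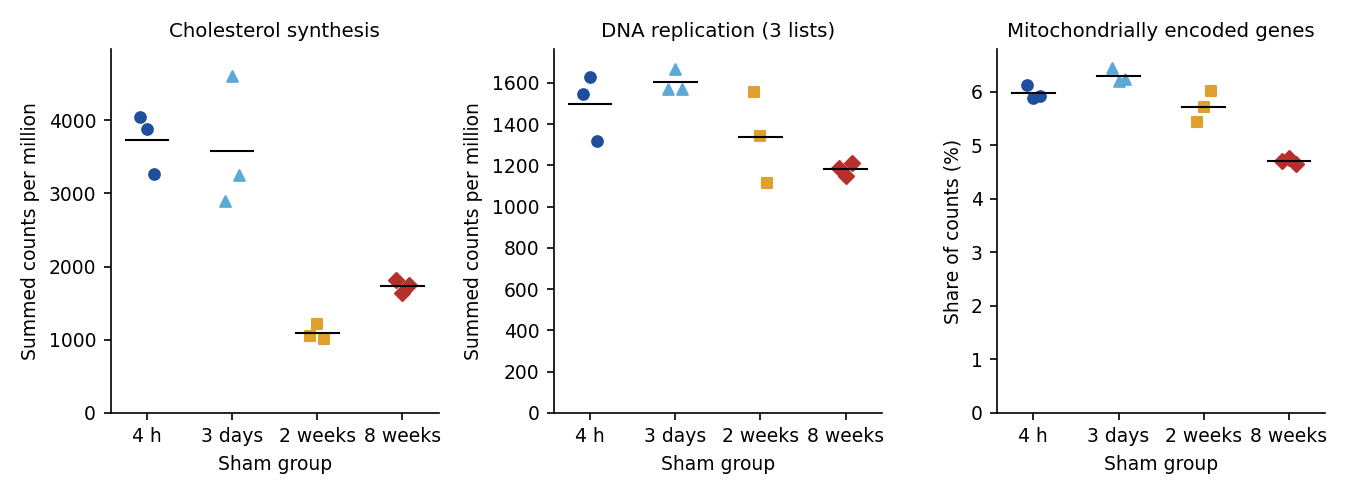
Summed CPM of the tested cholesterol synthesis enzymes, summed CPM of the DNA replication genes of 3 lists, and the share of counts on mitochondrially encoded genes, in the 12 sham libraries by group (x axis), with a line at each group mean. Sterol sums were 3260 to 4038 CPM at 4 h, 1635 to 1821 CPM at 8 weeks and lowest at 2 weeks, and the mitochondrial share was 4.66% to 4.77% at 8 weeks against 5.43% to 6.45% in the other groups.

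DNA replication genes had mostly negative fold changes, but few single genes were called. Of 65 tested genes of origin licensing, the replication fork, and nucleotide supply with G1/S control, 60 had a negative log2 fold change, with a median of -0.40 before and after GC correction. Every 8-week library lay below every 4-h library for 42 of them, against 15.3% of all genes, whereas 7 were called lower and 1 higher, against 1.53% and 1.29% of all genes (21 and 1 by DESeq2). After GC correction 3 were called lower and 0 higher. These lists were also chosen with earlier results of these data known. The summed level was 1544, 1630 and 1318 CPM at 4 h, 1570, 1667 and 1569 CPM at 3 days, 1553, 1341 and 1116 CPM at 2 weeks and 1185, 1149 and 1212 CPM at 8 weeks. The 8-week libraries were below all libraries of 4 h and 3 days and within the range of the 2-week libraries, and no replication gene except Rpa3, a subunit of the single-strand binding protein, was called between 8 weeks and 2 weeks.

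Within these lists the called genes belonged to the fork list and to the list of nucleotide supply and G1/S control. Clspn, which encodes claspin, an adaptor of the replication checkpoint, had 12.9, 12.9 and 11.5 CPM at 4 h and 5.47, 5.79 and 7.10 CPM at 8 weeks (log2 fold change -1.03 ± 0.15, adjusted p = 0.025; 0.031 after GC correction). Rrm1, the large subunit of ribonucleotide reductase, had 66.3, 70.9 and 66.5 CPM at 4 h and 38.2, 41.5 and 45.9 CPM at 8 weeks, and stayed called after GC correction (adjusted p = 0.037). Chaf1a, a subunit of the chromatin assembly factor, had 14.7, 15.3 and 12.9 CPM at 4 h and 8.72, 8.19 and 9.52 CPM at 8 weeks and also stayed called (adjusted p = 0.039). Neither group overlapped the other in these 3 genes. Pola1 and Prim2, of the primase complex, and Hells, a chromatin remodeler, were called lower without the correction, with log2 fold changes of -0.95, -0.76 and -0.81, and not with it (adjusted p = 0.10, 0.092 and 0.10). Cdca7, a partner of Hells, was the gene called higher (log2 fold change 0.68 ± 0.13, adjusted p = 0.043; 0.073 after GC correction).

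No subunit of the helicase, and none of the 21 licensing genes, was called (1 higher and 12 lower at an unadjusted p below 0.05, and 0 and 4 by DESeq2). Mcm3, Mcm5 and Mcm6 had log2 fold changes of -0.70, -0.68 and -0.67 with adjusted p = 0.096, 0.071 and 0.066, and their 4-h libraries were uneven: Mcm6 had 70.0, 77.3 and 47.2 CPM at 4 h and 43.4, 39.1 and 39.6 CPM at 8 weeks, so that the third 4-h library stood between the other 4-h libraries and the 8-week group. Pcna, the sliding clamp, had 77.1, 91.4 and 65.7 CPM at 4 h and 62.7, 61.3 and 60.0 CPM at 8 weeks. Of 32 tested genes of mitosis 0 were called in either direction, 30 had a negative log2 fold change, and the median was -0.46 (-0.33 after GC correction). At an unadjusted p below 0.05, 10 of the 32 were lower and 0 higher (3 and 0 by DESeq2), and 5 lay lower without overlap, against 12.3% and 15.3% of all genes. Mki67, the proliferation marker, had 141, 133 and 213 CPM at 4 h and 79.3, 92.2 and 140.0 CPM at 8 weeks, overlapping, while at 2 weeks it had 309, 224 and 126 CPM. In these bulk samples fewer dividing cells and less RNA per cell cannot be told apart. The E2F core TTTNNCGC was found in 15 of 55 promoters of the replication lists, against 4.94% of all genes, and in 2 of 27 promoters of the mitosis list, where the CCAAT box was found in 22.

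Mitochondrially encoded genes took a smaller share of the counts at 8 weeks. The share was 6.13%, 5.88% and 5.92% at 4 h and 4.70%, 4.77% and 4.66% at 8 weeks, or 5.98% ± 0.134 against 4.71% ± 0.0589 (SD, n = 3 each), without overlap. The difference of -1.27 percentage points had p = 0.1 in a two-sided exact permutation test, the smallest that 3 against 3 allows. The 3-day libraries (6.21% to 6.45%) and 2-week libraries (5.43% to 6.02%) lay above the 8-week libraries as well. The irradiated 8-week libraries spread from 3.42% to 5.82%.

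Gene by gene, 10 of the 13 mitochondrial protein genes were analysed here, and 9 had a negative log2 fold change (median -0.33). Of the 10, 2 were called lower and 8 lay lower without overlap, against 1.53% and 15.3% of all genes. At an unadjusted p below 0.05, 7 were lower and 0 higher, and 6 and 0 by DESeq2. The genes called were mt-Nd5, a subunit of complex I with 3158, 4002 and 3294 CPM at 4 h and 2250, 1943 and 2341 CPM at 8 weeks (log2 fold change -0.68 ± 0.13, adjusted p = 0.041), and mt-Nd6, with 464, 545 and 443 CPM at 4 h and 319, 354 and 277 CPM at 8 weeks (-0.61 ± 0.12, adjusted p = 0.047). Their ends overlap on opposite strands of the mitochondrial genome (11742 to 13565 and 13552 to 14070, mm9), and since the kit does not mark strand, reads from the shared stretch cannot be told apart. The most abundant, mt-Co1, a core subunit of cytochrome c oxidase, had 23270, 23360 and 24620 CPM at 4 h and 17400, 19150 and 17330 CPM at 8 weeks (log2 fold change -0.40 ± 0.10, adjusted p = 0.067). At the other end mt-Nd3 had a log2 fold change of 0.37, with overlapping groups. Mitochondrial transcripts are poor in GC (median 36.6%), and after GC correction 0 of the 10 were called and their median was -0.07. Neither mt-Nd5 nor mt-Nd6 was called when any library other than the third 4-h library was left out. The part of base composition in the share of counts was not tested.

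The nuclear side of the respiratory chain gave no calls. Of 73 tested nuclear subunits of complexes I to V 0 were called (2 higher and 11 lower at an unadjusted p below 0.05, and 0 and 3 by DESeq2), the median log2 fold change was -0.03, and 14 lay lower without overlap, against 15.3% of all genes. In the machinery that copies and transcribes the mitochondrial genome, 27 genes were tested. Of these 2 were called lower and 1 higher, against 1.53% and 1.29% of all genes, and 0 after GC correction. Mtpap, the mitochondrial poly(A) polymerase, had 61.4, 67.9 and 59.3 CPM at 4 h and 36.1, 42.3 and 44.1 CPM at 8 weeks (log2 fold change -0.62 ± 0.10, adjusted p = 0.032; 0.091 after GC correction). Fastkd2, which handles mitochondrial RNA, was called lower (-0.43) and Esrra, a receptor that drives mitochondrial gene expression, higher (0.58). Tfam, which packages the mitochondrial genome, had a log2 fold change of -0.26 and was not called, and Ppargc1a, the coactivator of mitochondrial biogenesis, was nearly level (-0.04).

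Clock genes were uneven among the sham groups. The circadian clock runs through BMAL1 (Arntl) and CLOCK, which activate the Per, Cry and Nr1d genes and the output factors Dbp, Tef and Hlf, and the hour of collection was not given in the sources used here. At 8 weeks against 4 h, 1 of 18 genes was called higher and 0 lower, against 1.29% and 1.53% of all genes (0 after GC correction). At an unadjusted p below 0.05, 5 were higher and 2 lower (4 and 1 by DESeq2). Per2 had 101, 77.3 and 125 CPM at 4 h and 209, 184 and 153 CPM at 8 weeks (log2 fold change 0.85 ± 0.18, adjusted p = 0.049). Nr1d1, a repressor of Arntl, had 19.0, 26.7 and 59.1 CPM at 4 h and 112, 90.9 and 81.0 CPM at 8 weeks, and Dbp had 16.2, 12.6 and 65.4 CPM at 4 h and 103, 77.8 and 70.5 CPM at 8 weeks. Neither was called (adjusted p = 0.067 and 0.16), and in both the third 4-h library was the highest of its group.

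Against the 2-week group, 10 of 18 clock genes were called higher at 8 weeks and 3 lower, against 2.25% and 1.52% of all genes, and also 10 and 3 after GC correction (1.23% and 0.379% of all genes). Arntl had 67.5, 73.2 and 61.2 CPM at 2 weeks and 18.9 to 23.8 CPM at 8 weeks (log2 fold change -1.65, adjusted p = 3.4e-04). Npas2 and Clock, which encode partners of BMAL1, had log2 fold changes of -1.66 and -0.84. Dbp had 4.53, 6.61 and 8.03 CPM at 2 weeks, a log2 fold change of 3.71, and Per2 (2.60), Per3 (2.07), Per1 (1.92), Tef (2.58) and Cry2 (1.55) were called higher at 8 weeks. The sterol sums were lowest in that same group, and the part of the clock in them was not tested.

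**Figure D5:**
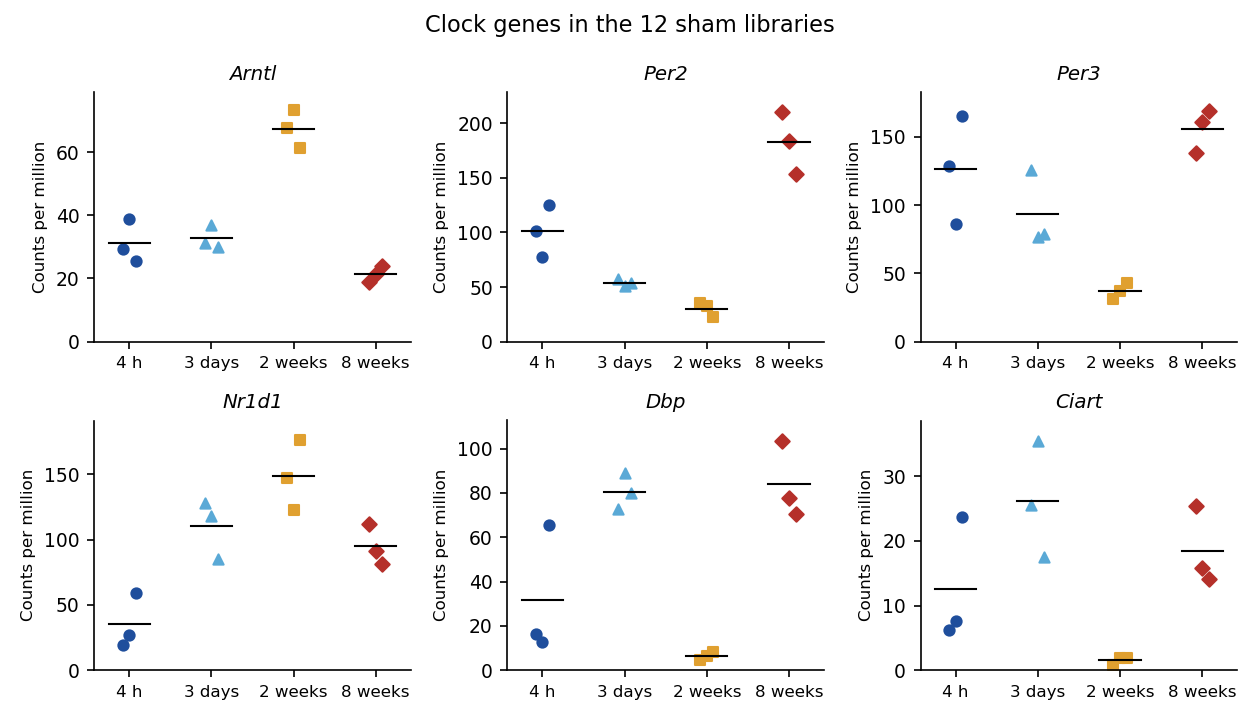
CPM (TMM scaled over the 12 sham libraries, y axes from 0) of 6 clock genes in each sham library by group (x axes), with a line at each group mean. Per2 was called higher at 8 weeks than at 4 h; at 2 weeks Arntl was high and Per2, Per3, Dbp and Ciart were low.

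Outside these lists, mainly the genes with the largest called changes are named below, and most other calls are not described. Areg, an EGF-family growth factor, had 29.3, 46.9 and 83.4 CPM at 4 h and 13.8, 8.33 and 7.05 CPM at 8 weeks (log2 fold change -2.45 ± 0.39, adjusted p = 0.030), lower in all 3 later libraries. Rgs1, a regulator of G-protein signaling found in lymphocytes, had 10.04, 15.9 and 15.4 CPM at 4 h and 2.61, 3.19 and 2.22 CPM at 8 weeks (log2 fold change -2.36 ± 0.23, adjusted p = 0.0040). B-cell markers summed to 85.04, 7.62 and 94.0 CPM at 4 h and 7.92, 51.2 and 36.6 CPM at 8 weeks, overlapping. The part of lymphocyte content in the Rgs1 level was not tested. Gramd2 and H2-Q10, an MHC class I gene of a multigene family whose reads may be shared with its relatives, were also called lower, with log2 fold changes of -1.73 and -1.99. All 4 were called after GC correction.

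Among genes called higher, Ankrd37, a target of hypoxia-inducible factor, had 3.21, 1.62 and 2.10 CPM at 4 h and 12.1, 11.4 and 6.35 CPM at 8 weeks (log2 fold change 2.11 ± 0.33, adjusted p = 0.028). Gadd45b, a stress-response gene, had 5.72, 4.21 and 7.76 CPM at 4 h and 15.7, 20.5 and 17.8 CPM at 8 weeks, and Ifit1bl2, of the interferon-induced Ifit family, had 3.31, 5.48 and 3.40 CPM at 4 h and 9.31, 16.9 and 11.1 CPM at 8 weeks. These 3 kept their call after GC correction. Of 19 interferon-stimulated genes tested 0 were called (0 higher and 2 lower at an unadjusted p below 0.05, and 0 and 1 by DESeq2). Of the 19, 18 had a negative log2 fold change, but 1 lay lower without overlap, against 15.3% of all genes. Gfi1, a transcription factor of secretory and blood cells, and Ier5l were called higher with log2 fold changes of 1.70 and 1.599. Ier5l, with a GC content of 71.7%, was not called after correction, and Gfi1 had no GC value. Irf1, an interferon-regulated transcription factor, was the named DEG that was higher, with 46.0, 50.5 and 59.7 CPM at 4 h and 106, 138 and 108 CPM at 8 weeks (log2 fold change 1.17 ± 0.14, adjusted p = 0.0089; 0.014 after GC correction).

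Of 19 tested genes of the fasting response 2 were called higher, against 1.29% of all genes (0 after GC correction). At an unadjusted p below 0.05, 8 were higher and 0 lower (4 and 0 by DESeq2). Without overlap 7 lay higher, against 15.1% of all genes. Of the 19 log2 fold changes 18 were positive (median 0.26). Angptl4, an inhibitor of lipoprotein lipase, had 0.853, 1.08 and 1.502 CPM at 4 h and 2.96, 3.24 and 5.79 CPM at 8 weeks (log2 fold change 1.80 ± 0.36, adjusted p = 0.046; 0.079 after GC correction). The groups did not overlap, and the third 8-week library was the highest.

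Immediate early genes were uneven within the 4-h group and 0 of 18 were called (2 higher and 6 lower at an unadjusted p below 0.05, and 0 and 3 by DESeq2). Egr1 had 5.17, 82.5 and 205 CPM at 4 h and 6.75, 3.89 and 3.48 CPM at 8 weeks (adjusted p = 0.063), and Fos had 59.7, 83.1 and 517 CPM at 4 h. The third 4-h library, in which Fos was highest, also had the lowest sterol sum (3260 CPM) and the lowest replication sum (1318 CPM) of its group. The same library had the highest mitosis sum of its group (930 CPM, against 634 and 609 CPM). Leaving it out, 14 sterol enzymes were called lower, as with it, and 16 replication genes in place of 7. Leaving out any other library left 11 or 12 sterol enzymes called lower and 0 to 3 replication genes.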

How the data were processed

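Polyadenylated RNA from the rectum of 3 mice in each of 9 groups was sequenced, and the 6 libraries of the sham groups at 4 h and 8 weeks were compared. Whole counts per gene were deposited by the authors, and no source used here names the program that made them. FPKM values were made by the authors with RSEM after trimming with fastp 0.18.0, alignment with HISAT2 to mm9 and assembly with StringTie 1.3.1, per the processing notes of the submitters. Counts were filtered with filterByExpr, scaled by TMM and tested with the quasi-likelihood test of edgeR 4.0.16 (R 4.3.3), with Benjamini-Hochberg adjustment over all genes tested. A gene was called at an adjusted p below 0.05. The 2-week comparison used 1 fit of the 12 sham libraries. Levels are CPM from the 6-library fit for 4 h and 8 weeks, and from the 12-library scaling where 3 days or 2 weeks are given. GC content was removed as a loess curve per library (span 0.5), an alternative chosen after seeing the data. DESeq2 1.42.0 and limma 3.58.1 were alternatives, the latter on log2(FPKM + 1). Named genes outside the lists were those called with the largest changes in each direction. Members and gene lists were chosen with earlier results of these data known. Some listed genes are counted in their lists but not reported singly here. Of 13 mitochondrial protein genes 10 were in the tables. The tests were checked on simulated counts. Replicates are separate mice, and no 2 libraries agreed within sampling noise. Libraries held 19162655 to 21527405 counts.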

Additional observations from a re-analysis of the deposited data

How the results depend on the processing

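Of 58 called genes of the lists and the named set, none changed direction where it was fitted (53 in the FPKM fits with a filter and 50 in the fits of genes with a GC value). All cholesterol synthesis enzymes fitted had a negative log2 fold change in each alternative, except 17 of 18 with the GC-content correction. Counts of calls moved far more. For 8 weeks against 4 h, genes called higher and lower numbered 78 and 90 with total counts only, 578 and 692 with DESeq2 (84 DEGs), 14 and 51 with limma on log2(FPKM + 1) (3 DEGs), 16 and 53 with log2(FPKM + 0.1) (3 DEGs), and 2 and 18 without a filter on FPKM (0 DEGs, 8 cholesterol enzymes). A fit of all 9 groups gave 84 higher and 11 DEGs, and GC-content correction gave 16 higher and 51 lower. Replication genes called lower numbered 3 with total counts only, 21 with DESeq2, 1, 1 and 0 in the FPKM fits and 3 with GC correction. Mitochondrial genes called lower numbered 6 with DESeq2, 1, 1 and 0 in the FPKM fits, 5 with all sham groups, 0 with all 9 groups and 0 with GC correction. By FPKM the mitochondrial share differed by -13.84 percentage points, with overlapping groups (36.3, 45.8 and 53.0 against 31.6, 25.1 and 36.9%) and p = 0.2 in the exact permutation test.

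Same-numbered libraries were not paired (correlations of their deviations -0.0812, -0.185 and 0.107). With the replicate number as a block, 15 genes were called higher and 31 lower, with 0 DEGs, 12 cholesterol enzymes, 0 replication genes and 0 mitochondrial genes. Leaving out each library in turn gave 0 to 34 DEGs, 5 to 228 genes higher, 19 to 259 lower, 11 to 14 cholesterol enzymes, 0 to 16 replication genes and 0 to 2 mitochondrial genes. Genes called higher and lower were fewest without the second 8-week library and most without the third 4-h library. For 8 weeks against 2 weeks, 721 genes were higher and 630 lower with DESeq2, 1052 and 803 with those 2 groups alone and 169 and 52 with GC correction, and leaving out each library gave 74 to 217 higher and 20 to 145 lower. The causes of these shifts were not tested.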

Other observations

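The largest difference among DEGs belonged to a transcribed locus with no gene name, newGene_3203. It had 0 counts in each 4-h library, 17, 0 and 0 counts at 3 days, 123, 38 and 100 counts at 2 weeks and 79, 193 and 119 counts at 8 weeks. Against a floor of 3 counts per library, the 8-week level was at least 43.6-fold higher than at 4 h. A second unnamed locus, newGene_5106, had 387, 580 and 522 counts at 4 h and 123, 125 and 102 counts at 8 weeks. At 3 days it had 457, 246 and 97 counts, so that the third library lay below those of 8 weeks. Its 2-week libraries were as low as those of 8 weeks in 2 of 3 cases (122, 59 and 181 counts). Neither locus was assigned to a gene in the tables used here.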
